A study of Saccharomyces cerevisiae S288C and Saccharomyces paradoxus NRRL Y-17217 and Saccharomyces mikatae IFO 1815 with 8 samples.

Results

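The small nucleolar RNAs (snoRNAs) of S. cerevisiae were taken as every row of feature type snoRNA in the count tables of this yeast, which gave 77 of 6996 annotated open reading frames (ORFs), snoRNAs, tRNAs, snRNAs and other non-coding RNAs. Of these, 76 carry an snR name and the remaining row is NME1, the RNA of RNase MRP, which is no snoRNA of either main class but also acts on the rRNA precursor. The R64 annotation of RefSeq matched all 77 by name and gave 47 as box C/D and 29 as box H/ACA snoRNAs. The series holds RNA-Seq counts for 2 cultures each of 4 yeasts, and the tables of S. bayanus, S. mikatae and S. paradoxus list 0 snoRNA rows, so the only samples with snoRNA reads are replicate 2 and replicate 1 of the S. cerevisiae strain S288c wt (FY4xFY5), a wild-type prototrophic diploid with no treatment. Cultures were in exponential growth, in complete media per the labels and in a synthetic glucose medium without amino acids per the methods of the study. The replicates were prepared on different days from separate isolates, so day and culture cannot be told apart, and with 1 group of 2 libraries no test between conditions could be run. The tables hold 12152480 uniquely aligned reads on ORFs in replicate 2 and 4986745 in replicate 1, and 1474581 and 866619 on snoRNAs.

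Small nucleolar RNAs guide the chemical modification of ribosomal RNA in the nucleolus. A box C/D snoRNA pairs with rRNA next to a short D or D' box, and the methyltransferase Nop1 of its particle methylates the ribose of the rRNA base paired to the fifth nucleotide before that box. A box H/ACA snoRNA folds into hairpins whose internal loops pair with rRNA, and the pseudouridine synthase Cbf5 isomerises the uridine held there. A few snoRNAs, among them U3, U14 and snR30, are needed for cleavage of the rRNA precursor, and yeast snoRNAs are released from transcripts of their own, from shared precursors of several snoRNAs or from introns of protein-coding genes.

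The guide stretches of the box C/D members that carried the most reads, or that lie in the longest run of neighbouring snoRNAs, are shown to tell what each one pairs with. A guide was sought as the run of base pairs, G-U pairs allowed, that covers the annotated rRNA base paired to the fifth base before a D-like box, which was CTGA or differed from it at 1 letter. For 42 of 55 annotated sites such a run had at least 9 pairs (median 12.5, range 10 to 19), against 10 of 2483 pairings of box C/D snoRNAs with sites annotated to other members (0.403%). The annotated sites may have been assigned by this same kind of pairing, so the contrast is no independent support for the stretches. Sequences are those of R64, 5' to 3' in DNA letters, with the guide stretch in capitals. The first 7 follow each other on the plus strand of chromosome XIII in this order, and snR66, snR56 and snR40 were among the members with the most reads.
snR78: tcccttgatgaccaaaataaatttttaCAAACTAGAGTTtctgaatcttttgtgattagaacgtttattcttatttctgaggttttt
snR77: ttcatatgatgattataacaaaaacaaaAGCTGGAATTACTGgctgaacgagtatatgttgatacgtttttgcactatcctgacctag
snR76: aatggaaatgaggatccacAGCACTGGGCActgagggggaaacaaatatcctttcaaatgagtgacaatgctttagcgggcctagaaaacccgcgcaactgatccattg
snR75: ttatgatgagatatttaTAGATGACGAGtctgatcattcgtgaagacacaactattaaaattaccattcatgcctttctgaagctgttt
snR74: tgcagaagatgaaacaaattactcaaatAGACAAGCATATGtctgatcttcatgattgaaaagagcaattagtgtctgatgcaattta
snR73: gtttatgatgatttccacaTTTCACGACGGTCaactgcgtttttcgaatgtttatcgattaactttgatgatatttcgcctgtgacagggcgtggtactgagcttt
snR72: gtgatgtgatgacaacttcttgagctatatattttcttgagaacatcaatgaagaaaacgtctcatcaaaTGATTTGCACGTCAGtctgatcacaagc
snR66: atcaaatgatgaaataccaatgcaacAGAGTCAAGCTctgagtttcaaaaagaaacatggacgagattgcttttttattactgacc
snR56: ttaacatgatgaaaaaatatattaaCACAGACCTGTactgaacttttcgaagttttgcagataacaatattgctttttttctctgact
snR40: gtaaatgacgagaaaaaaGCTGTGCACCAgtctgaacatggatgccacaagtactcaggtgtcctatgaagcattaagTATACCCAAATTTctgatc

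The stretch in snR66 pairs with positions 2413 to 2423 of 25S rRNA, and the U at 2417 lies at the fifth place before its CTGA. The stretch in snR78 pairs with positions 2418 to 2429 and places the U at 2421, so the rRNA stretches of snR66 and snR78 overlap. The stretch in snR77 pairs with positions 575 to 588 of 18S rRNA and places the U at 578. snR56 pairs with positions 1425 to 1435 of 18S rRNA, and snR40 holds 2 stretches, for the G at 1271 of 18S rRNA and the U at 898 of 25S rRNA. Of the 47 box C/D members, 36 hold TGATGA, the core of the C box, in their first 20 bases, against 0.919% of all 20-base windows on both strands of the genome. CTGA, the D box, lies in the last 15 bases of 45 of the 47, against 4.17% of 15-base windows. Among the 29 box H/ACA members, 1 holds TGATGA and 1 holds CTGA at these places, and 18 hold ACA in their last 10 bases, against 7 of 47 box C/D members and 12.7% of 10-base windows. snR34 is shown as a box H/ACA member of high level, with its ACA in capitals.
snR34: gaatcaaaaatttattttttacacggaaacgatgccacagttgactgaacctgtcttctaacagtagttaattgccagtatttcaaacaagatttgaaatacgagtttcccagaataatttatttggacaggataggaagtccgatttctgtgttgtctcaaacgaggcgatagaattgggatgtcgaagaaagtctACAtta

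Reads of short genes on the minus strand were nearly absent from the tables, and this touches every value of the minus-strand members. The 20 plus-strand snoRNAs of up to 110 bases had 929 to 243118 reads in replicate 2 (median 9936.5) and 528 to 216523 in replicate 1 (median 5721). The 16 minus-strand snoRNAs of up to 110 bases had 8 to 334 reads in replicate 2 (median 36) and 1 to 95 in replicate 1 (median 15.5), so the strands did not overlap in either replicate. All 36 of these are box C/D snoRNAs. Over 110 bases the strands overlapped, with 513 to 240916 and 177 to 73238 reads in replicates 2 and 1 for 21 plus-strand members, and 843 to 55978 and 214 to 35350 reads for 20 minus-strand members. ORFs of up to 150 bases had medians of 1 and 0 reads on the plus strand (68 ORFs) and of 1.5 and 0 on the minus strand (62 ORFs) in replicates 2 and 1, too few to show whether they had such a gap.

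**Figure D1:**
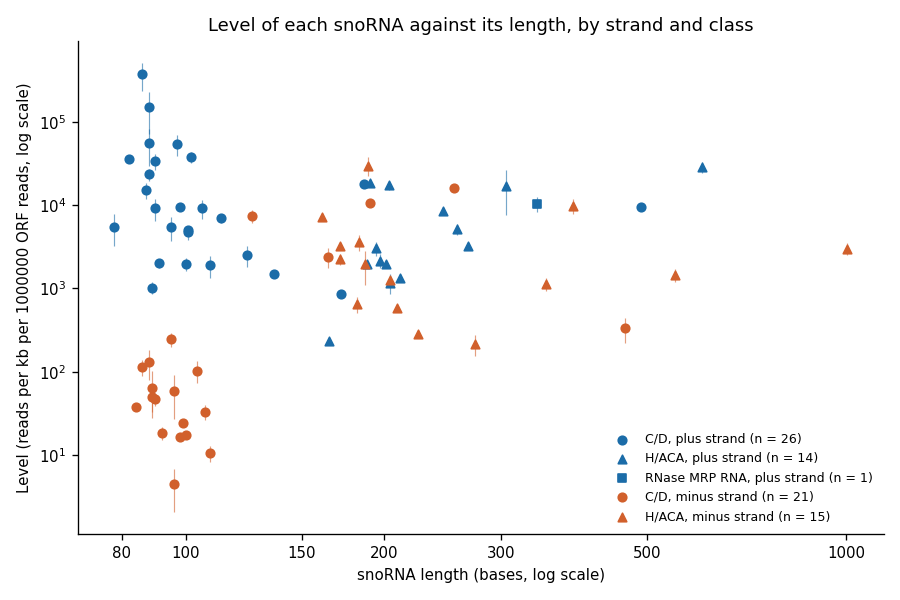
Mean level of each of the 77 members over the 2 replicates (points) and its range over them (vertical lines), in uniquely aligned reads per kb per 1000000 ORF reads, against length, both on log scales. Minus-strand members of up to 110 bases lie below all plus-strand members of that length, and the strands overlap among longer members.

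tRNA genes with copies on both strands also differed by strand, most where they were short. In all aligned reads, a read is counted at each position it matches. The 10 plus-strand copies of tD(GUC) had 19466 to 19553 in replicate 2 and 23369 to 23425 in replicate 1, against 0 to 3 and 0 to 2 for the 5 minus-strand copies. In 18 tRNA families of up to 80 bases with copies of the same anticodon and length on both strands, the median minus-strand copy had at most 1.3% of the reads of the median plus-strand copy in replicate 2 and 1.19% in replicate 1. In 5 families of 81 to 100 bases it had 0% to 19.2% in replicate 2 and 0% to 14.8% in replicate 1. In 7 families of over 100 bases it had 0.882% to 53.4% (median 5.49%) and 0% to 86.6% (median 2.08%), so the gap was smaller in some longer tRNAs. In all 7, every minus-strand copy still had fewer reads than every plus-strand copy in both replicates. This also held in 16 of the 18 families of up to 80 bases, but not in tT(AGU) and tR(UCU). In tT(AGU) the highest minus-strand counts were 56 and 36 in replicates 2 and 1, against at most 18 and 24 in plus-strand copies. A short minus-strand copy with many reads was tR(UCU)J2, which had 21204 and 29764 reads in replicates 2 and 1, against at most 284 and 303 in the plus-strand copies of its family. It lies 10 bases upstream of the minus-strand tD(GUC)J3, itself listed at 0 and 2.

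U3, transcribed from snR17a on the plus strand and snR17b on the minus strand, gave the same comparison within the snoRNAs. The genes hold exons 2 of 319 and 318 bases that are 91.5% identical, and their first 60 bases are the same letters, shown here because reads from such stretches are placed on both genes.
U3 exon 2, bases 1 to 60: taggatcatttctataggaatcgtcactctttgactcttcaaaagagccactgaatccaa

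Reads placed on more than 1 position numbered 68406 on snR17a and 68405 on snR17b in replicate 2, and 30214 on each in replicate 1. In snR17a, 99.9% of them lay in exon 2 in both replicates. In snR17b, 28.6% lay in exon 2 and 71.4% in the intron in replicate 2, and 20.5% and 79.5% in replicate 1, although the intron is not part of the shared sequence of exon 2. Reads of snR17b were thus listed on the 5' side of where those of snR17a were. Whether this displacement in the tables accounts for the low counts of the minus-strand members was not tested.

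**Figure D2:**
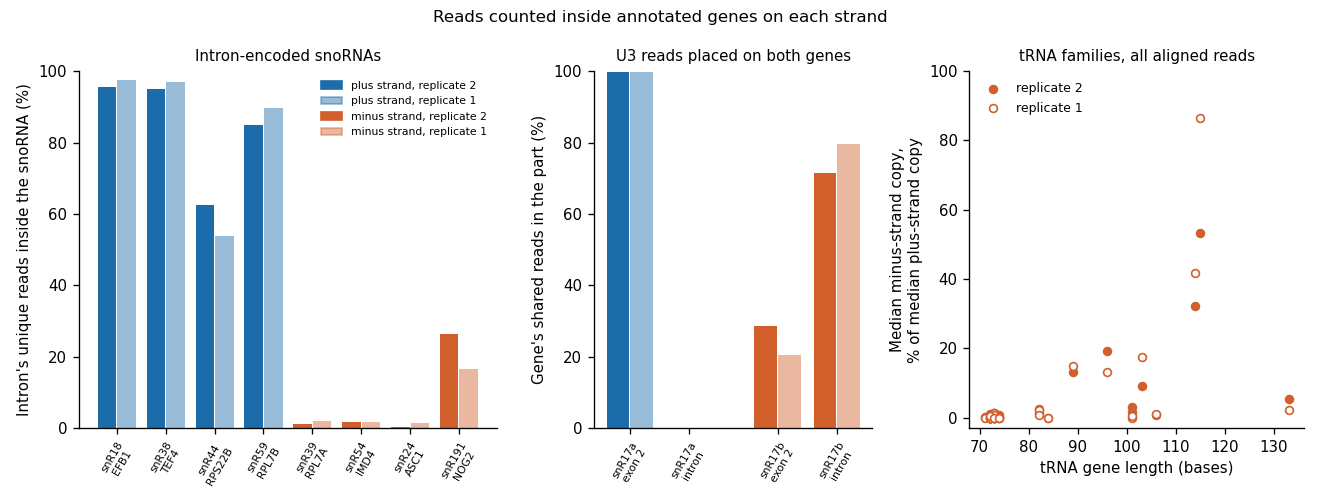
Left, percentage of an intron's uniquely aligned reads that lie inside its snoRNA, for 4 plus-strand and 4 minus-strand hosts. Middle, percentage of the reads shared by the U3 genes that lie in exon 2 or in the intron of each gene. Right, median all aligned reads of minus-strand tRNA copies as a percentage of the median of plus-strand copies, for 30 families by length. Plus-strand snoRNAs hold 53.9% to 97.5% of the reads of their introns, and minus-strand snoRNAs 0.400% to 26.3%.

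Across all members, snoRNAs took reads equal to 12.1% of ORF reads in replicate 2 and 17.4% in replicate 1 (mean 14.8% ± 3.71, SD, n = 2), from a summed length equal to 0.158% of that of the ORFs. Level is given below as uniquely aligned reads per kb of annotated length per 1000000 ORF reads. The median snoRNA level was 2478 in replicate 2 and 2796 in replicate 1 (mean 2637 ± 225, SD, n = 2), against 20.0 and 18.1 for the 6599 ORFs. The 6 snRNAs had medians of 1852 and 1887, so a level far above the ORFs was not particular to snoRNAs. In bulk RNA, the number of cells that hold an RNA and its amount per cell cannot be told apart. The libraries were selected for short inserts, and how far this affects the levels of short RNAs beside those of ORFs was not tested. Among the 6587 ORFs that overlap no snoRNA on their strand, 0.547% in replicate 2 and 0.501% in replicate 1 lay above the median snoRNA. The highest of these ORFs reached 19346 and 24215, and 11 snoRNAs exceeded it in each replicate. Plus-strand snoRNAs alone had a median level of 6392 and 7799 in replicates 2 and 1. Reads were concentrated in few members, since the 10 with the most reads held 62.3% of all snoRNA reads in replicate 2 and 69.2% in replicate 1. The 12 ORFs that overlap a snoRNA on the same strand, such as EFB1 around snR18, count its reads as their own and held 1.58% and 1.84% of ORF reads.

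**Figure D3:**
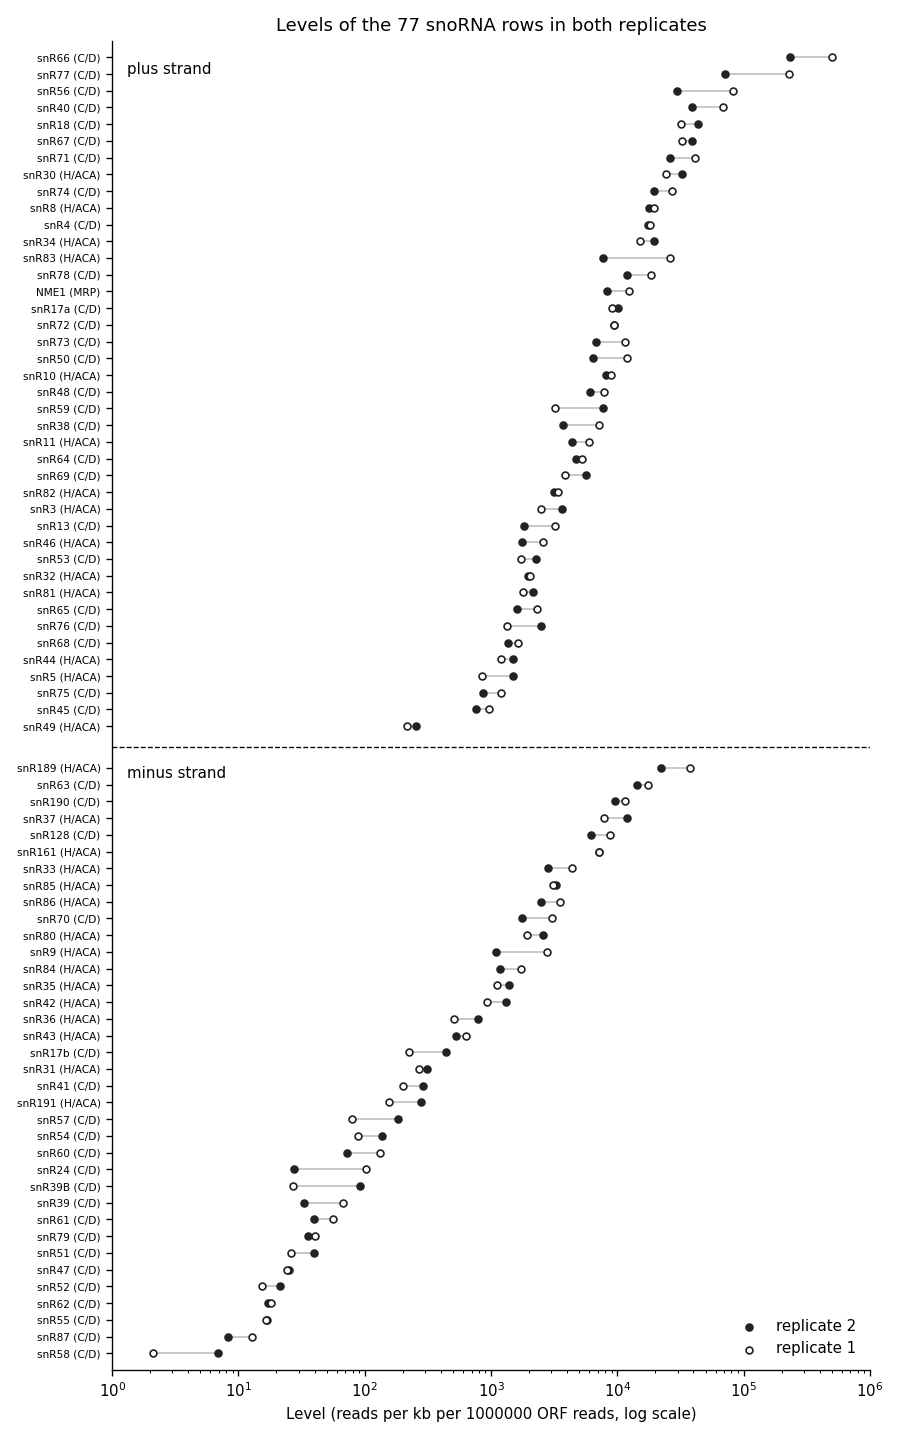
Level of each of the 77 members in replicate 2 (filled) and replicate 1 (open), in uniquely aligned reads per kb per 1000000 ORF reads on a log scale, with plus-strand members above and minus-strand members below, each ordered by mean level. Levels run from 6.86 and 2.09 in snR58 to 232624 and 504880 in snR66.

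The box C/D snoRNAs with the highest mean levels were snR66, snR77, snR56, snR40 and snR18, all on the plus strand. snR66, which guides methylation of 25S rRNA and lies at positions 586092 to 586177 of chromosome XIV in sacCer2, had 243118 reads in replicate 2 and 216523 in replicate 1, at levels of 232624 and 504880. It alone held 16.5% and 25% of all snoRNA reads. snR77, which guides methylation of 18S rRNA, had 76238 and 99534 reads, at levels of 71289 and 226815. In level these 2 stood above all other members in both replicates, and both were lower in replicate 2. snR56, a methylation guide for 18S rRNA, had levels of 29776 and 82029, and snR40, a guide for both rRNAs, 38951 and 69059. snR18, which guides methylation of 25S rRNA from an intron of EFB1, had levels of 43600 and 31820 and was the only member of these 5 that was higher in replicate 2. The order of snR56, snR40 and snR18 differed between the replicates, so their ranks are not separated by these data.

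The longest run of neighbouring snoRNAs holds snR78, snR77, snR76, snR75, snR74, snR73 and snR72 in 1374 bases at positions 297277 to 298650 of chromosome XIII in sacCer2, all on the plus strand and 81 to 141 bases apart. Yeast snoRNAs in such runs are cut from a shared precursor by the RNase III enzyme Rnt1. Levels in replicates 2 and 1 were 11897 and 18495 for snR78, 71289 and 226815 for snR77, and 2478 and 1336 for snR76. They were 859 and 1190 for snR75, 19441 and 27206 for snR74, 6731 and 11576 for snR73, and 9406 and 9409 for snR72. The highest member, snR77, exceeded the lowest, snR75, by 83.0-fold in replicate 2 and 191-fold in replicate 1, so the read counts along 1 run of genes were far from equal. The order of the 7 was the same in both replicates but for snR73 and snR72. NME1 was left out of the runs, although it ends at 585928 on the plus strand of chromosome XIV, within 500 bases of snR66. The other plus-strand run of snoRNAs, snR67 and snR53 on chromosome V, also held unlike members. There snR67 had levels of 38730 and 32266, and snR53 of 2274 and 1741. On the minus strand, snR190 and snR128 had 22238 and 9450 reads in replicate 2 and 10838 and 5498 in replicate 1. The minus-strand runs snR57, snR55 and snR61 and snR41, snR70 and snR51 held 8 to 2490 reads per member in replicate 1, with snR70, the only one over 110 bases, at the top.

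**Figure D4:**
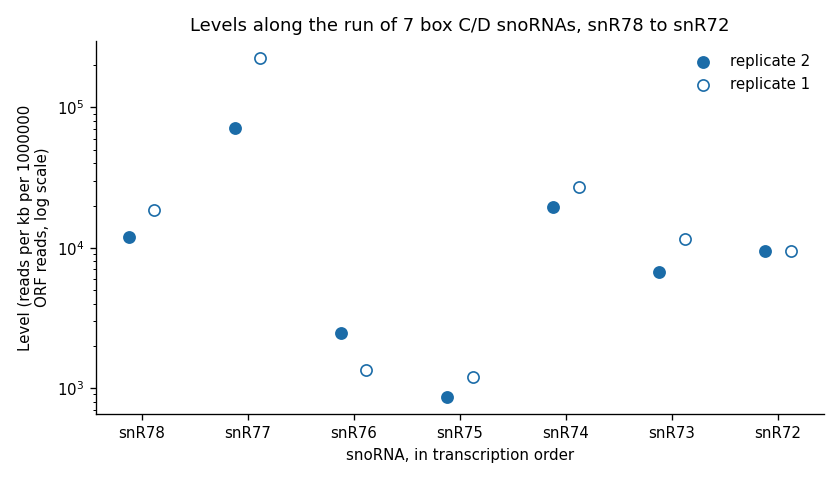
Level of the 7 box C/D snoRNAs of the chromosome XIII run in transcription order, in replicate 2 (filled) and replicate 1 (open), in uniquely aligned reads per kb per 1000000 ORF reads on a log scale. snR77 is the highest and snR75 the lowest in both replicates.

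The box H/ACA snoRNAs are all over 110 bases (161 to 1004). Their median levels in replicates 2 and 1 were 3388 and 2961 for 14 plus-strand members and 1388 and 1922 for 15 minus-strand members. In box C/D these medians were 7238 and 9254 for 26 plus-strand members and 40.0 and 67.6 for 21 minus-strand members. The gap between strands was thus smaller in box H/ACA, and whether length accounts for this was not tested. The 5 highest by mean level were snR189, snR30, snR8, snR34 and snR83. snR189, annotated to guide pseudouridylation of both large rRNAs, had levels of 22079 and 37507 although it lies on the minus strand. snR30, needed for cleavage of the 18S rRNA precursor, had 240916 reads in replicate 2 and 73238 in replicate 1, at levels of 32714 and 24235. snR8 had levels of 17680 and 19431, and snR34 of 19415 and 15021. Both guide pseudouridylation of 25S rRNA, and their ranks traded places between the replicates. snR83, with 18S rRNA as its target, had levels of 7655 and 26283. The lowest plus-strand box H/ACA member was snR49, at 256 and 215.

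Of the members that act in cleavage of the rRNA precursor, snR17a (U3) had 59688 uniquely aligned reads in replicate 2 and 22234 in replicate 1, at levels of 10024 and 9099. Its uniquely aligned share was 46.6% and 42.4%, and that of snR17b was 3.5% and 1.68%, while every other member was above 90% in both replicates, so unique reads understate U3. Counted over all aligned reads, snR17a had 128094 and 52448 and snR17b 70887 and 30729. snR128 (U14), which also guides methylation of 18S rRNA, had levels of 6172 and 8750. Its neighbour snR190, annotated as a methylation guide for 25S rRNA, had 9631 and 11439, and both lie on the minus strand but are over 110 bases. snR10, a box H/ACA snoRNA that also guides pseudouridylation, had levels of 8181 and 8944. The guides of 18S rRNA acetylation stood far apart from each other, with snR4 at 17608 and 18014 and snR45 at 758 and 956. NME1 had levels of 8245 and 12377.

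The 5 members with the lowest mean levels were snR58, snR87, snR55, snR62 and snR52, each a minus-strand box C/D snoRNA of 92 to 109 bases. They had 8, 11, 20, 21 and 24 reads in replicate 2 and 1, 7, 8, 9 and 7 in replicate 1, and are the members with fewer than 10 reads in either replicate. At such counts the ratio between the replicates is hardly bounded, as in snR62, whose log2 ratio of replicate 2 to replicate 1 was -0.19 with a 95% exact binomial interval of -1.38 to 1.12. In level, 4 of the 77 members in replicate 2 and 5 in replicate 1 lay below the median ORF.

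In all, 8 members lie in introns, from which the debranching enzyme Dbr1 and exonucleases release them. On the plus strand, snR18 held 95.6% of the uniquely aligned reads of the EFB1 intron in replicate 2 and 97.5% in replicate 1, and snR38 held 94.9% and 96.9% of those of the TEF4 intron. snR59 held 85.0% and 89.6% in RPL7B, and snR44, a box H/ACA snoRNA, 62.4% and 53.9% in RPS22B. On the minus strand, snR39 held 0.991% and 1.92% in RPL7A, snR54 1.82% and 1.77% in IMD4, and snR24 0.400% and 1.31% in ASC1. snR191, a box H/ACA snoRNA of 274 bases, held 26.3% and 16.6% in NOG2. The minus-strand introns were not empty, since that of ASC1 had 7465 and 3389 reads outside snR24 in replicates 2 and 1. The plus-strand EFB1 intron had 2494 and 411 reads outside snR18.

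snR39 and snR59 are annotated as guides for the same base, the A at 807 of 25S rRNA, from introns of the paralogues RPL7A on the minus strand and RPL7B on the plus strand. They are shown because they are 74.2% identical over 89 aligned positions and share their guide letters, with snR39 pairing over 13 bases and snR59 over 14.
snR39: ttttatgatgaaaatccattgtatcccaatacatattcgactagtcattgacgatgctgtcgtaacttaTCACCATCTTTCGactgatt
snR59: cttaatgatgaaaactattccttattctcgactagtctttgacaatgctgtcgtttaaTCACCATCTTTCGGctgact

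snR59 had 7342 reads in replicate 2 and 1245 in replicate 1, against 36 and 30 for snR39. All reads of both were uniquely aligned. Outside the intron that holds the snoRNA, the hosts' uniquely aligned reads ran the other way, with RPL7B at 142 and 244 and RPL7A at 2474 and 2964. No other intron was taken off these counts, so they may hold more than exon reads. Most reads of both hosts there had several positions (6909 and 7188 reads over all positions in RPL7B, 8339 and 9202 in RPL7A). How far strand, host and the guides themselves each account for the gap was not tested. snR39B, a guide for the G at 805 of 25S rRNA whose guide stretch overlaps that of snR39 and snR59, had 106 and 13 reads and is also on the minus strand.

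The median log2 level of box C/D snoRNAs differed from that of box H/ACA snoRNAs by -0.13 in replicate 2 and 0.25 in replicate 1 over all members, within the spread of the replicates. Among plus-strand members, box C/D snoRNAs were higher by 1.09 and 1.66 on the log2 scale, with medians of 7238 and 9254 against 3388 and 2961. Among members over 110 bases on either strand they were higher by 1.29 and 1.61, but only 11 box C/D members are that long. Length and level had a Spearman rho of 0.08 over all 77 members, of -0.28 over the 41 plus-strand members and of 0.64 over the 36 minus-strand members. The plus-strand classes went opposite ways, with -0.44 over 26 box C/D and 0.46 over 14 box H/ACA members. These correlations are descriptions over genes that share 2 libraries and a selection of short inserts. GC content was 26% to 47.9% in plus-strand members and had a rho with level of 0.08 over all of them, of 0.06 over the box C/D and of 0.41 over the 14 box H/ACA members. Among plus-strand box C/D guides, the 6 with only 18S rRNA as target had median levels of 18525 and 22610, and the 18 with only 25S rRNA 6236 and 7455, with wide overlap, since snR45 (18S) was lowest of all in both and snR66 (25S) highest.

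Between the replicates, counts were scaled by 2.66, the median ratio of replicate 2 to replicate 1 over 5342 ORFs with at least 10 reads in both. Of 72 snoRNAs with at least 10 reads in both replicates, 3 were at least 2-fold higher in replicate 2 and 9 at least 2-fold lower, while 11.1% of all 5466 features were that much higher and 14.7% that much lower. The members' shares, 4.17% and 12.5%, are below and near these backgrounds. On the plus strand alone, 1 of 41 members was at least 2-fold higher and 6 at least 2-fold lower. The median snoRNA log2 ratio was -0.27, with 45 of 72 (62.5%) below 0, where 50.6% of all features were. Features with many reads leaned the same way. At 1000 or more reads in both replicates the median was -0.40 over 50 snoRNAs, with 72% below 0, against -0.16 over 730 ORFs, with 57.7% below 0. The SD of these ratios was 0.63 over the snoRNAs and 0.81 over the ORFs. Across the 72 snoRNAs, which share both libraries, log2 reads had a Pearson correlation of 0.98 between the replicates. It was 0.96 over the 41 on the plus strand and 0.94 over the 50 with at least 1000 reads in both.

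Of the members at least 2-fold lower in replicate 2, snR66 and snR77 were among the 5 with the most reads in both replicates, and snR83 and snR56 in replicate 1 alone. snR83 had a log2 ratio of -1.91 (95% exact binomial interval -1.93 to -1.89, counting error only), snR77 of -1.80, snR56 of -1.59, snR9 of -1.47 and snR66 of -1.25. snR38 and snR50 lay just past the line at -1.05 and -1.02, and snR40 just inside it at -0.95. snR24 had the lowest ratio, -2.00, but on 30 and 45 reads, with an interval of -2.71 to -1.30, and snR39 had -1.15 on 36 and 30. The members at least 2-fold higher in replicate 2 were snR39B (1.62, on 106 and 13 reads), snR59 (1.15, on 7342 and 1245) and snR57 (1.08, on 197 and 35). The interval of snR39B ran from 0.78 to 2.57, while that of snR59 ran from 1.06 to 1.24. The intervals of snR39B, snR57 (0.56 to 1.64), snR39 (-1.89 to -0.40), snR38 and snR50 cross the 2-fold line. Plus-strand box C/D members had a median of -0.54 and plus-strand box H/ACA members of -0.03. Within plus-strand box C/D members, the 20 of up to 110 bases had a median of -0.63 and the 6 longer ones of -0.43. tRNAs, the other short RNAs of the tables, had a median of -1.07 over the 40 of 299 genes with at least 10 reads in both and of -0.72 over the 10 with at least 1000, but 9.91% and 4.63% of their reads were uniquely aligned in replicates 2 and 1. With 1 library per day, a difference in RNA level between the cultures and one in the recovery of short RNA cannot be told apart.

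**Figure D5:**
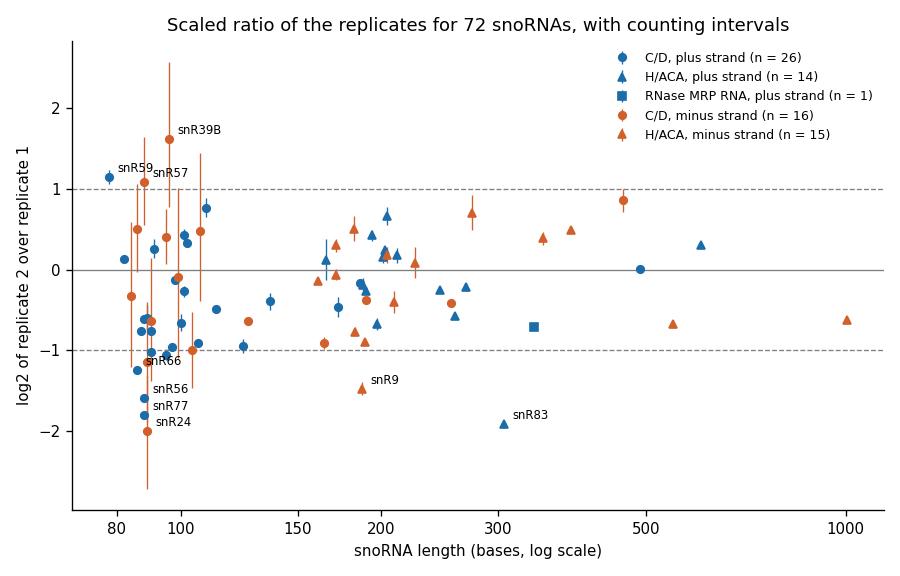
log2 of scaled reads in replicate 2 over replicate 1 for the 72 members with at least 10 reads in both, against length on a log scale, with 95% exact binomial intervals for counting error and dashed lines at 2-fold. Of the 12 members past 2-fold, 10 are among the 31 box C/D snoRNAs of up to 110 bases shown, beside 25.8% of all 5466 features. The others are snR83 and snR9. Of the 11 minus-strand members of up to 110 bases, which had few reads, 2 were at least 2-fold higher and 2 at least 2-fold lower.

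Genes of the snoRNA particles were read from the same libraries. The core proteins of box C/D particles are the methyltransferase Nop1, the scaffold proteins Nop56 and Nop58 and the kink-turn binder Snu13. NOP1 had 8930 reads in replicate 2 and 1615 in replicate 1 (log2 ratio 1.05) and SNU13 2476 and 285 (1.71), while NOP56 had 4075 and 1217 (0.33) and NOP58 1854 and 735 (-0.08). The core proteins of box H/ACA particles are the pseudouridine synthase Cbf5 and its partners Gar1, Nhp2 and Nop10. GAR1 had 1431 and 168 reads (1.68) and NOP10 513 and 54 (1.84), while CBF5 had 1648 and 433 (0.52) and NHP2 411 and 120 (0.36). Of these 8 genes, 4 were at least 2-fold higher in replicate 2 and 0 lower, beside 11.1% and 14.7% of all features, and the difference from other genes was not tested. The 95% exact binomial interval of NOP1, 0.98 to 1.13, crosses the 2-fold line, while those of SNU13, GAR1 and NOP10 lie above it. Of 9 assembly factor genes, 0 were at least 2-fold higher and 2 lower, beside the same shares of all features. These were NAF1 (-1.15, on 128 and 107 reads) and TAH1 (-1.37, on 33 and 32). Their 95% exact binomial intervals, -1.54 to -0.77 and -2.11 to -0.62, cross the 2-fold line. Of 11 processing factor genes, 0 were higher and 1, NAB3 (-1.01), lower, beside the 14.7% of all features that were lower. The interval of NAB3, -1.16 to -0.86, also crosses the line, and 57.2% and 59.9% of its reads were uniquely aligned in replicates 2 and 1. Among the processing factors, Rnt1 and Dbr1, which act on runs and introns, had RNT1 at -0.55 and DBR1 at 0.43.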

How the data were processed

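The authors deposited raw counts of reads per annotated feature, with no normalization, as uniquely aligned reads and as all aligned reads. Per the study's methods, total RNA was depleted of rRNA, fragmented, selected for short inserts and sequenced with strand kept as 35-base SOLiD reads, aligned with MOSAIK (version not given in the sources used here) to sacCer2 with up to 2 mismatches. The ends of RNAs with modified termini could escape these libraries. Depths of 12152480 and 4986745 ORF reads limit precision, and exact binomial intervals (95%) cover counting error only. Positions in the files count from 0 and were raised by 1. R64 differs from sacCer2 in position, so classes, targets and sequences were joined by name, and all 77 lengths were the same. Levels are reads per kb per 1000000 ORF reads. Ratios of replicate 2 to replicate 1 were scaled by the median ORF ratio. No test was run, since 1 group of 2 libraries has no contrast.

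Biopython 1.88, SciPy 1.17.1, pandas 2.3.3, NumPy 2.4.6, Python 3.11.15 and R 4.3.3 were used, with TMM of edgeR 4.0.16 and size factors of DESeq2 1.42.0 as alternative scalings. The ratio step was run on simulated counts with Poisson noise alone and changes larger than 2-fold. That simulation cannot tell how calls at 2-fold fare under the wider spread between these cultures. Members and lists were chosen with earlier results of these data known. Named snoRNAs were those of rRNA cleavage and acetylation, the 5 highest by level in each class, the 5 lowest of all, the 5 highest and 5 lowest ratios, those under 90% unique or under 10 reads, and those in introns or within 500 bases of the next on the same strand. Others, such as snR49 as lowest of a set, were named after their values were seen. snR45 was named by rule for acetylation, but its place as lowest of a set was also picked after its values were seen. Lists of core proteins, assembly and processing factors and host genes were also given.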

Additional observations from a re-analysis of the deposited data

How the results depend on the processing

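Alternatives with members of the plus strand or over 110 bases, and with ORFs free of snoRNAs, were chosen after seeing the data. No paired analysis was possible because only 1 group has snoRNA reads. snoRNA reads were 14.8% of ORF reads as a mean of the replicates, 12.1% to 17.4% with either left out, and 23.7% for plus-strand snoRNAs over plus-strand ORFs. The share was 11.3% with all aligned reads, 11.6% without the snoRNA with the most reads, and 12.3% with all annotated genes as denominator. With ORFs that overlap no snoRNA as denominator it was 15.0%. The median level of 2637 was 1965 with all aligned reads, 3367 with length minus 34 bases, 2930 for members with 10 reads in both, 7096 on the plus strand, 9541 there with length minus 34, and 2478 to 2796 with either replicate left out. The median log2 ratio of -0.27 was -0.14 when scaled by total ORF reads, which also shifted all features by 0.13, and stayed between -0.27 and -0.22 under the other alternatives. The 12 members past 2-fold were 10 under that scaling (without snR38 and snR50), 10 to 13 over alternatives of scaling, reads and read minimum, 7 on the plus strand and 2 over 110 bases, where fewer members were counted. The share of calls that were higher in replicate 2 was 25%, and 30% under total ORF reads, 30.8% at 1 read, 18.2% at 30 reads, 14.3% on the plus strand and 0% over 110 bases. The difference of box C/D and box H/ACA medians, 0.06 on the log2 scale, was -0.13 without replicate 1 and 0.25 without replicate 2, 0.39 with length minus 34, 1.38 on the plus strand, 1.64 there with length minus 34 and 1.45 over 110 bases. The rank correlation of level and length, 0.08, was 0.08 with either replicate left out, 0.032 with length minus 34, -0.28 on the plus strand and -0.37 there with length minus 34. The cause of these changes was not tested.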
